A study of Mus musculus with 6 samples.

Results

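Interleukin receptor genes were compared between BCR-ABL1-transformed mouse pre-B cells that carried Cre-ERT2 and cells that carried ERT2 alone. The genes were chosen by symbol: every gene whose symbol starts with Il, a number and the letter r, and that had a probe set (a group of array probes read as 1 value) with exactly 1 gene. This gave 36 genes of 19938. Where a gene had several such probe sets, which held for 3 of the 36, the one brightest on average across all 6 arrays was taken. By role they fell into 7 subunits of receptors that pair with the common gamma chain, 8 genes of the Il1 and Il18 receptor type and 21 others. The common gamma chain gene itself, Il2rg, and Il1r1, Il1rl1, Il11ra1 and Il11ra2 were not analysed here. Il1rn takes the symbol pattern but encodes a soluble antagonist of the IL-1 receptor, not a receptor.

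The cells were pre-B cells from mice of 5 weeks with a 129SvEv x C57BL/6J background, transformed with the leukaemia kinase BCR-ABL1, and both alleles of the transcription factor gene Sox4 were floxed in all 6 samples (Sox4fl/fl). In 3 samples they were transduced with Cre-ERT2, the recombinase Cre in a form kept inactive until the drug 4OHT (4-hydroxytamoxifen) binds it, and in 3 samples with ERT2, the drug-binding part without Cre. RNA was collected at 24 h of 4OHT, and each sample was read on 1 array. Since all samples had 4OHT and floxed Sox4, effects of losing Sox4 and effects of active Cre cannot be told apart; whether replicates were separate cultures is not stated, so the spread behind every p-value may be technical.

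Interleukin receptors are cell-surface proteins through which lymphocytes and other cells sense secreted interleukins. Most are built from a subunit that binds 1 ligand and a subunit shared between ligands, and those of the gamma-chain type signal through JAK kinases and STAT factors, whereas those of the IL-1 type signal through MyD88 and IRAK kinases. In the B lineage the IL-7 receptor drives growth and survival of pro-B and pre-B cells, and BCR-ABL1 itself activates STAT5, the factor that the IL-7 receptor uses.

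Sox4 read 1237 to 1459 on the ERT2 arrays and 499 to 599 on the Cre-ERT2 arrays. Array medians lay between 273 and 279 in intensity (array brightness on a linear scale after RMA), and 3 arrays a group limit the precision. Of the 10 pre-B cell markers with a value, 0 lay below the median on all arrays. Their summed intensity was 81466 to 81900 on the ERT2 arrays and 77610 to 79170 on the Cre-ERT2 arrays. Rag1 and Rag2, the recombinase genes, were lower by limma (adjusted p = 0.00595 and 0.000214), 20% of the 10 against 8.1% of all genes. The sum also held lower means of Cd24a (11155 in ERT2, 10339 in Cre-ERT2), Pax5 (6266, 5386), Cd79a, Blnk and Ebf1, which did not pass. Means of Cd79b, Vpreb1 and Igll1 were slightly higher. In RNA of a whole culture, fewer cells of a type and less RNA per cell cannot be told apart.

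Of the 36 interleukin receptor genes, 4 rose and 3 fell in Cre-ERT2 cells, at an adjusted p under 0.05 by limma over all probe sets. Il1r2, Il27ra, Il21r and Il13ra1 rose, and Il1rl2, Il12rb2 and Il7r fell. Over all 19938 genes 4.38% rose and 3.72% fell, together 8.1%, against 19.4% of the interleukin receptors. A call with a difference beyond 1 in either direction was seen in 3 receptors, and in 1.35% of all genes. The median difference of the receptors, on the log2(intensity + 1) scale used throughout, was 0.022, and that of all genes was 0.021. In 14 of the 36 the groups did not overlap, 10 with Cre-ERT2 above and 4 with Cre-ERT2 below, where this held for 28.3% of all genes, 17.5% above and 10.8% below. In size the changes went from a rise of 1.43 for Il1r2 to a difference of -1.64 for Il1rl2, and the 29 genes that did not pass had differences from -0.18 to 0.33. Within a group, the SD of the members over 3 arrays was 0.069 in the median and 0.29 at most, the latter in Il23r among the ERT2 arrays.

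**Figure D1:**
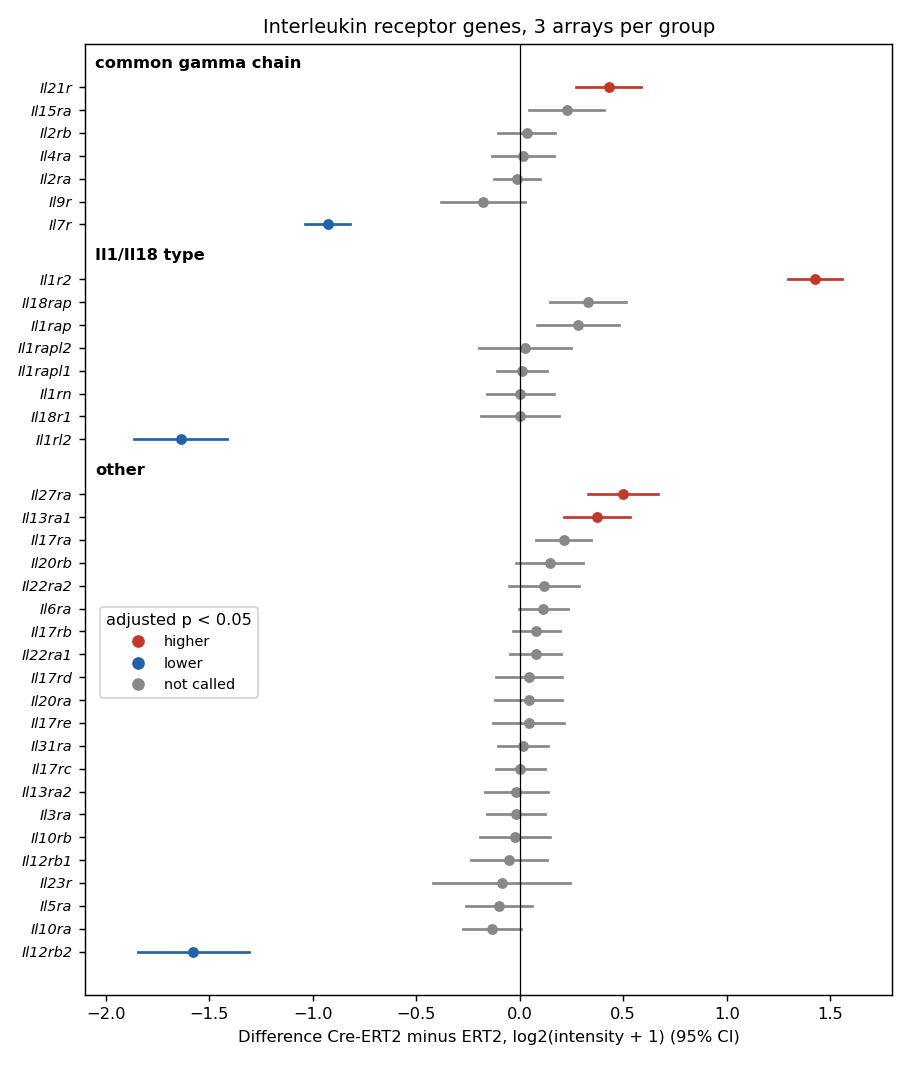
Log2 difference (Cre-ERT2 minus ERT2) of each of the 36 interleukin receptor genes on the x axis, with limma's 95% confidence interval as the line, grouped by receptor type. Most genes lie close to 0, while Il1r2 (1.43) stands to the right and Il7r (-0.93), Il12rb2 (-1.58) and Il1rl2 (-1.64) to the left.

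Among subunits that pair with the common gamma chain, Il7r fell and Il21r rose. Il7r, the IL-7-binding chain that pre-B cells need to grow (probe set 10427628), read 6531, 6741 and 6580 on the ERT2 arrays and 3418, 3560 and 3463 on the Cre-ERT2 arrays. The Cre-ERT2 arrays all lay below the ERT2 arrays, and within either group the readings differed little. Its mean intensity was 6617 ± 110 (SD, n = 3) in ERT2 and 3481 ± 72.5 (SD, n = 3) in Cre-ERT2 cells, which is 52.6% of the ERT2 mean. On the log2 scale the difference was -0.93, with a 95% confidence interval of -1.04 to -0.82 (limma adjusted p = 0.000118).

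Il21r, which encodes the receptor chain for IL-21, a cytokine of T cells that acts on B cells (probe set 10557342), read 372, 337 and 326 on the ERT2 arrays and 474, 472 and 446 on the Cre-ERT2 arrays. The groups did not overlap, with ERT2 replicate 1 nearest to the Cre-ERT2 arrays. Its difference was 0.43, with an interval of 0.27 to 0.59 (limma adjusted p = 0.0124). Its call was lost without Cre-ERT2 replicate 1 (adjusted p = 0.0556) or Cre-ERT2 replicate 2 (0.0605), with differences of 0.41 and 0.42.

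Il2ra, the high-affinity chain of the IL-2 receptor known as CD25 and a marker of pre-B cells, did not pass the test. Its intensities were 5103, 5060 and 5211 on the ERT2 arrays and 5083, 5219 and 4935 on the Cre-ERT2 arrays, so the Cre-ERT2 arrays held both its highest and its lowest reading. Its difference was -0.01, with an interval of -0.13 to 0.10 (limma adjusted p = 0.942).

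The other 4 gamma-chain subunits did not pass either. Il15ra, which presents IL-15 to neighbouring cells, read 790 to 909 on the ERT2 arrays and 932 to 1053 on the Cre-ERT2 arrays, without overlap, with a difference of 0.23 (limma adjusted p = 0.186). Il9r, the IL-9 receptor, had a difference of -0.18 (interval -0.38 to 0.023), with overlapping groups. Il4ra, shared by the IL-4 and IL-13 receptors, and Il2rb, shared by the IL-2 and IL-15 receptors, had differences of 0.016 (interval -0.13 to 0.16) and 0.033 (interval -0.11 to 0.17). Il9r, with readings of 215 to 269, and Il2rb, with readings of 109 to 122, lay below the median of every array, where a change is hard to see.

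**Figure D2:**
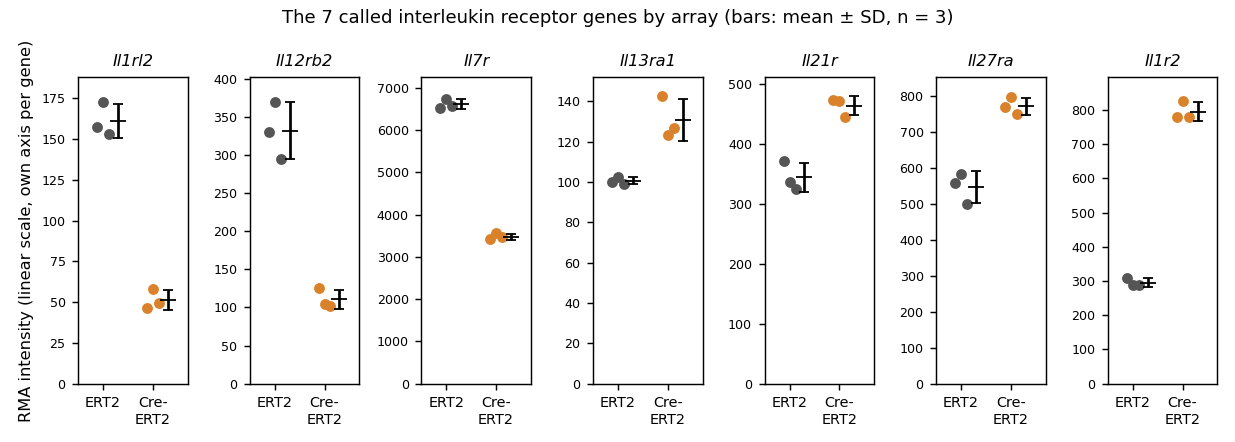
Intensity on each array (points, 3 per group) with the mean and SD beside them, for the 7 called genes, each on its own y axis that starts at 0. In every panel the 3 Cre-ERT2 points lie all above or all below the 3 ERT2 points, and for Il13ra1 1 Cre-ERT2 array (143) stands apart from the other two.

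In the Il1 and Il18 receptor type the extremes of the whole set were found in the main fit, in opposite directions. In some other fits Il12rb2 lay lowest, as on log2(intensity + 16), with -1.46 against -1.40 for Il1rl2. Il1r2, the decoy receptor that binds IL-1 without passing on a signal (probe set 10345752), read 310, 287 and 289 on the ERT2 arrays and 780, 826 and 778 on the Cre-ERT2 arrays. Each Cre-ERT2 array thus stood far above each ERT2 array. The mean rose from 295 ± 12.4 (SD, n = 3) to 795 ± 26.9 (SD, n = 3), to 269% of the ERT2 mean, which is 1.43 on the log2 scale (interval 1.29 to 1.56, limma adjusted p = 5.05e-05).

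Il1rl2, the signalling receptor for the IL-36 cytokines (probe set 10345777), fell. It read 157, 173 and 153 on the ERT2 arrays and 46.3, 57.8 and 49.7 on the Cre-ERT2 arrays. All 6 readings were below the array medians, and the groups were well apart. Its mean dropped from 161 ± 10.2 (SD, n = 3) to 51.3 ± 5.95 (SD, n = 3), or 31.8% of the ERT2 mean, a difference of -1.64 (interval -1.86 to -1.41, limma adjusted p = 0.00021).

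Il18rap and Il1rap, accessory chains that complete the IL-18 receptor and the IL-1, IL-33 and IL-36 receptors, were above the ERT2 arrays on all 3 Cre-ERT2 arrays but did not pass. Il18rap read 159 to 191 on the ERT2 arrays and 210 to 221 on the Cre-ERT2 arrays (difference 0.33, interval 0.15 to 0.51, limma adjusted p = 0.0621). Il1rap read 583 to 688 and 710 to 813 (difference 0.28, interval 0.084 to 0.48, limma adjusted p = 0.129). The remaining 4 genes of the type were Il18r1, the ligand-binding chain of the IL-18 receptor, the antagonist Il1rn, and Il1rapl1 and Il1rapl2, relatives of the accessory chain known from neurons. Their differences lay between 0.0011 and 0.027, with overlapping groups and all readings below the array medians.

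Il1r2 is also known from neutrophils and other myeloid cells, so myeloid markers were read beside it. The summed intensity of the 11 myeloid markers was 1832 to 1849 on the ERT2 arrays and 2222 to 2434 on the Cre-ERT2 arrays. Of these markers 1 rose, Lyz2, which encodes a lysozyme, by 1.40, and 1 fell, Itgam, an integrin chain, with a difference of -0.49, a call lost without ERT2 replicate 1 or Cre-ERT2 replicate 2 (adjusted p from 0.0558 to 0.0574); 9 of the 11 lay below the median on all arrays. Lyz2 had a mean of 351 on the ERT2 arrays and 932 on the Cre-ERT2 arrays, so the higher sum rested on this gene. The median difference of the 11 markers was -0.015. The share called was 18.2%, against 8.1% of all genes. Cre-ERT2 lay above ERT2 without overlap in 3 of the 11 and below in 2. Over all genes this held for 17.5% above and 10.8% below. The part of myeloid cells in the Il1r2 result was not tested.

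Among the 21 other receptors, Il12rb2 fell while Il27ra and Il13ra1 rose. Il12rb2, the signalling chain of the IL-12 receptor, known from T cells and NK cells (probe set 10545135), read 331, 369 and 295 on the ERT2 arrays and 125, 104 and 102 on the Cre-ERT2 arrays. The lowest ERT2 reading was well above the highest Cre-ERT2 reading. Its mean dropped from 332 ± 37.2 (SD, n = 3) to 111 ± 12.7 (SD, n = 3), 33.3% of the ERT2 mean, a difference of -1.58 (interval -1.84 to -1.31, limma adjusted p = 0.000451). The NK-cell markers summed to 817 to 846 on the ERT2 arrays and 813 to 864 on the Cre-ERT2 arrays, and all 9 of them lay below the median on all arrays. T-cell markers, 11 in number, summed to 2152 to 2280 on the ERT2 arrays and 2302 to 2507 on the Cre-ERT2 arrays. Of the 11, 1 rose, Cd5, by 0.56, which is 9.09% against 8.1% of all genes called. Below the median on all arrays lay 9 of the 11. Cd5 had a mean of 385 on the ERT2 arrays and 566 on the Cre-ERT2 arrays, so the higher sum rested on this gene. The median difference of the 11 was 0.0025. Cre-ERT2 lay above ERT2 without overlap in 3 of them and below in 2, where this held for 17.5% and 10.8% of all genes. The part of T cells in the results for Il12rb2 and Il21r was not tested.

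Il27ra, the IL-27-specific chain of the IL-27 receptor (probe set 10580061), read 558, 583 and 498 on the ERT2 arrays and 768, 796 and 748 on the Cre-ERT2 arrays. The groups did not overlap. Its difference was 0.50 (interval 0.33 to 0.67, limma adjusted p = 0.00893), and its mean was 141% of the ERT2 mean.

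Il13ra1, which joins Il4ra in a receptor for IL-4 and IL-13 (probe set 10599174), gave 100.2, 102 and 99.3 on the ERT2 arrays and 143, 123 and 127 on the Cre-ERT2 arrays. Readings were low and below the array medians, yet the groups did not overlap. Its difference was 0.37 (interval 0.21 to 0.53, limma adjusted p = 0.0237). The call was lost without ERT2 replicate 1 (adjusted p = 0.0919), ERT2 replicate 3 (0.0846) or Cre-ERT2 replicate 3 (0.0789).

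The 18 other receptors that did not pass lay between -0.13 and 0.21. At the upper end was Il17ra, the shared chain of the IL-17 receptors, with readings of 2441 to 2688 on the ERT2 arrays and 2936 to 3049 on the Cre-ERT2 arrays (difference 0.21, interval 0.080 to 0.34, limma adjusted p = 0.0904). Its relatives Il17rb, Il17rc, Il17rd and Il17re had differences of 0.081, 0.0031, 0.044 and 0.043. At the lower end Il10ra, the IL-10-binding chain, read 1686 to 1885 and 1594 to 1668 (difference -0.13, limma adjusted p = 0.311), with Cre-ERT2 below ERT2 on all arrays, whereas its partner Il10rb had a difference of -0.024 with overlapping groups. Il6ra, the IL-6-binding chain, had a difference of 0.11, and Il3ra and Il5ra, the binding chains for IL-3 and IL-5, had differences of -0.020 and -0.10. The IL-20 and IL-22 receptor genes Il20ra, Il20rb, Il22ra1 and Il22ra2 lay between 0.044 and 0.14. Il31ra, Il13ra2, a decoy for IL-13, Il12rb1 and Il23r, chains of the IL-12 and IL-23 receptors, lay between -0.086 and 0.016. Among the 3 genes with several probe sets, all 3 probe sets of Il20rb and both of Il22ra1 had differences above 0, while those of Il17rd had differences of 0.044 and -0.13; none of these 7 probe sets passed.

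The partner subunits and ligands of the 7 called genes were then read side by side, since a receptor works as a complex. For IL-27 a partner and a ligand gene were called as well. Il6st, the shared signalling chain gp130, rose by 0.50 (interval 0.28 to 0.71, limma adjusted p = 0.0237), and Ebi3, a subunit of IL-27 itself, rose by 0.58 (interval 0.39 to 0.77, limma adjusted p = 0.00717). Il27, which encodes the other subunit, had a difference of -0.028 (interval -0.19 to 0.13). Il6st read 735, 838 and 684 on the ERT2 arrays and 994, 1122 and 1062 on the Cre-ERT2 arrays, and Ebi3 read 259 to 284 and 373 to 444. In both genes the groups did not overlap. Il6st lost its call without ERT2 replicate 1 or 3 or Cre-ERT2 replicate 2 or 3 (adjusted p from 0.0679 to 0.0955).

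For the other called receptors none of the partner and ligand genes named below passed. Il12rb2 was read here as part of the IL-12 receptor only. Crlf2, which joins Il7r in the receptor for TSLP, had a difference of -0.024 (interval -0.13 to 0.084), and the ligand genes Il7 and Tslp had differences of -0.13 and 0.052. Il12rb1, the partner of Il12rb2, had a difference of -0.052 (interval -0.24 to 0.13), and Il12a and Il12b, the subunits of IL-12, 0.18 and 0.0057. Il4ra, the partner of Il13ra1, and Il1rap, the partner of Il1rl2 that was also read for Il1r2, are given above. For Il1rl2 no ligand gene was read. Il1a and Il1b, whose products Il1r2 binds, had differences of -0.10 and -0.029, and Il21 had -0.087.

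**Figure D3:**
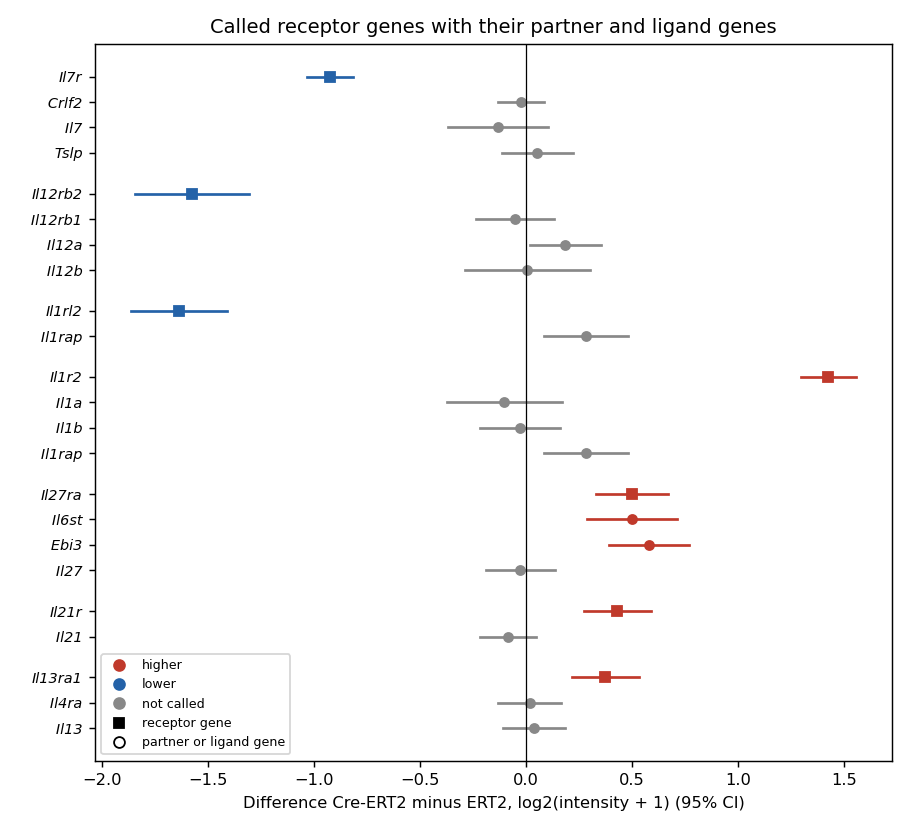
Log2 differences (Cre-ERT2 minus ERT2, x axis) with 95% confidence intervals for the 7 called receptor genes (squares) and, under each, its partner and ligand genes (circles). Il27ra (0.50), Il6st (0.50) and Ebi3 (0.58) lie together on the right, whereas Crlf2 and Il12rb1, the partners of Il7r and Il12rb2, lie near 0. Il12a (0.18) and Il1rap (0.28) lie to the right of 0 without being called.

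Many of these genes sit next to each other on the chromosomes. In the RefSeq gene table (assembly GRCm38.p6) 6 runs of interleukin receptor genes had no other protein-coding gene between them; they held 16 genes, of which 14 had a value here and 4 were called, 28.6% against 19.4% of all the interleukin receptors and 8.1% of all genes, with no test of that difference. The longest run, on chromosome 1, goes Il1r2, Il1r1, Il1rl2, Il1rl1, Il18r1 and Il18rap. In it Il1r2 rose by 1.43, Il1rl2 had a difference of -1.64, Il18r1 0.0011 and Il18rap 0.33. On chromosome 6 Il12rb2 (-1.58) lies beside Il23r (-0.086, interval -0.42 to 0.24), and on chromosome 7 Il21r (0.43) lies beside Il4ra (0.016). On chromosome 2 Il2ra (-0.01) lies beside Il15ra (0.23). The called genes of the run on chromosome 1, Il1r2 and Il1rl2, have Il1r1 between them, which was not analysed here, and no other run held more than 1 called gene.

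**Figure D4:**
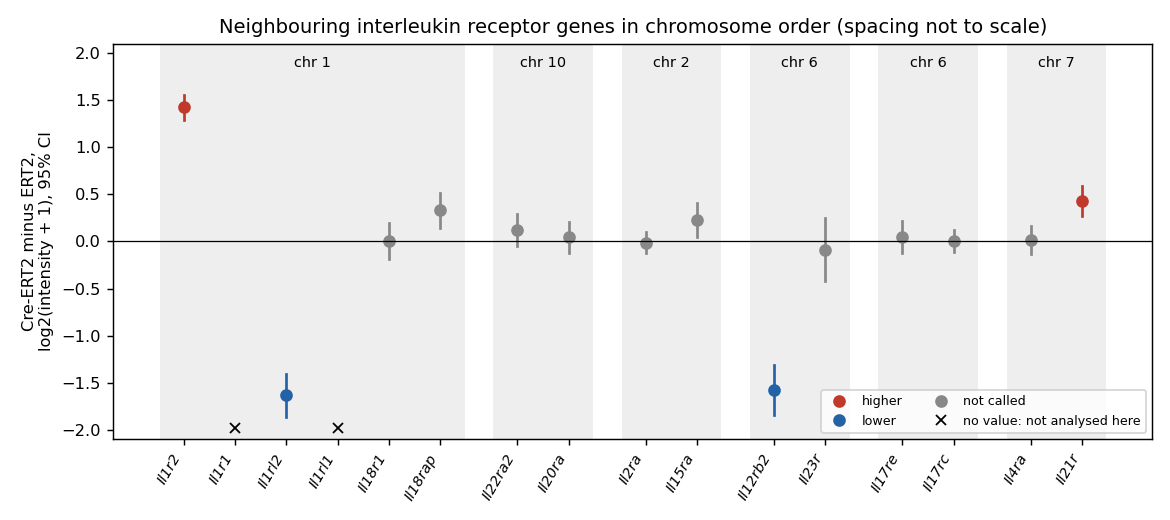
Log2 difference (Cre-ERT2 minus ERT2, y axis) with its 95% confidence interval for neighbouring interleukin receptor genes, in chromosome order within each grey block; spacing is not to scale, and crosses mark genes without a value here. Il1r2 (1.43) and Il1rl2 (-1.64) stand at opposite ends of the axis within 1 block.

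The stretches upstream of the 4 genes with the largest changes are shown, as the data single these genes out. The 250 bases before the annotated start come from RefSeq (GRCm38.p6), which listed 34 start sites for 29 of the 36 genes and 1 each for 6 of the 7 called genes; Il27ra had none. Capitals mark TTCNNNGAA, the spaced palindrome that STAT factors bind, and ACAAAG or ACAATG, letters of the core that Sox factors bind, on either strand; no marked match overlaps another.
Il7r, chr15:9529877-9530126, minus strand: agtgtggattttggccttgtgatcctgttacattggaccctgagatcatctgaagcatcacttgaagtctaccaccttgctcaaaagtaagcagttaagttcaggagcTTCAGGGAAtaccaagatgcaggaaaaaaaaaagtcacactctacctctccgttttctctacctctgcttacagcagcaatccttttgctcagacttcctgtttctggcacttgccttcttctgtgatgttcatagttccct
Il12rb2, chr6:67376189-67376438, minus strand: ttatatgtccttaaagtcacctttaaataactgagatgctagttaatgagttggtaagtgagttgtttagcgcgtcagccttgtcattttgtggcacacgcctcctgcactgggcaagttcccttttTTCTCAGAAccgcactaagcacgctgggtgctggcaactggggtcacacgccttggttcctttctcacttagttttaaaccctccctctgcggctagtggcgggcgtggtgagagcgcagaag
Il1rl2, chr1:40324339-40324588, plus strand: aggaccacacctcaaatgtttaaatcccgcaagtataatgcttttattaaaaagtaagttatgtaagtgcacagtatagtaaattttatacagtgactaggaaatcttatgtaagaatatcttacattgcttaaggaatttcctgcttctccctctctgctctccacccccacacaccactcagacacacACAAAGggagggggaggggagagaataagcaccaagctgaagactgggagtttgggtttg
Il1r2, chr1:40085843-40086092, plus strand: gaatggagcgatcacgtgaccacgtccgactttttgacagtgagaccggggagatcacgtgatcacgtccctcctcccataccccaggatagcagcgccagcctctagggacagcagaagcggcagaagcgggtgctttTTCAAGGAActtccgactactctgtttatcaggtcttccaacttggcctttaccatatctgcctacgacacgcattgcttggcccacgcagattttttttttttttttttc
TTCNNNGAA is present in the windows of Il7r, Il12rb2 and Il1r2, starting 142, 123 and 111 bases upstream. The Sox letters are present in that of Il1rl2, starting 60 bases upstream, and, of the other called genes, in that of Il13ra1. Over all 32851 windows of this length 7.02% hold TTCNNNGAA and 25.2% the Sox letters, and over the windows of the interleukin receptors 5 of 34 and 8 of 34 do. The E-box letters CANNTG were in 30 of 34 receptor windows and 66.2% of all, and ACCGGAAG, letters of a site of Ets factors, in 0 of 34 and 1.72% (also searched on both strands and not marked). A match is a description of the letters, not a bound site.

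Genes around the receptors were read from lists of the same pathways. Over all genes 8.1% were called, and 20.1% had an unadjusted p under 0.05. Of 9 JAK kinases and STAT factors with a value 0 passed by limma, 2 having an unadjusted p under 0.05: Tyk2, a kinase of the IL-12 receptor, had a difference of 0.29 (limma adjusted p = 0.0656), and Stat5b, which acts below the IL-7 receptor, had -0.14 (limma adjusted p = 0.258). Of 13 feedback inhibitors of cytokine signalling 6 had an unadjusted p under 0.05. Of the 13, 0 rose and 1 fell, 7.69% against 8.1% of all genes. The fallen gene was Socs1, which blocks JAK kinases, with a difference of -0.33 (interval -0.48 to -0.18, limma adjusted p = 0.0285). Socs1 lost its call without any array other than ERT2 replicate 3 (adjusted p from 0.0698 to 0.12). Cish and Socs2, known targets of STAT5, had differences of 0.13 and 0.11 and did not pass.

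Of 9 adaptors and kinases of the IL-1 receptor 0 passed by limma, with 3 at an unadjusted p under 0.05 (33.3%, against 20.1% of all genes). Among 4 genes that act with the IL-17 receptor 1 was called, 25% against 8.1% of all genes. This was Zc3h12a, an RNase that limits cytokine messages, which rose by 0.28 (limma adjusted p = 0.0424). Its call was lost without any array other than ERT2 replicate 2 (limma adjusted p from 0.107 to 0.158). It was also lost under median centring (0.0513) and with the replicate number as a block (0.0524).

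Related receptor subunits with other symbols were called in 3 of 17 cases (17.6%, against 8.1% of all genes). An unadjusted p under 0.05 was seen in 8 of the 17 (47.1%, against 20.1% of all genes). Lifr, which pairs with Il6st in the receptor for LIF, rose by 0.55 (interval 0.34 to 0.76, limma adjusted p = 0.0157), from readings of 843 to 1024 on the ERT2 arrays to 1244 to 1395 on the Cre-ERT2 arrays. Csf2rb2, the IL-3-specific beta chain of the mouse, fell, with readings of 1315 to 1582 and 980 to 1103 (difference -0.53, interval -0.74 to -0.31, limma adjusted p = 0.0188). Csf2rb, the beta chain shared by IL-3, IL-5 and GM-CSF, had a difference of -0.034 (interval -0.16 to 0.096). As the 2 beta-chain genes are close copies, how far their probes tell them apart was not tested. Lifr lost its call without ERT2 replicate 1 or 3 or Cre-ERT2 replicate 2 or 3 (adjusted p from 0.0599 to 0.0762), and Csf2rb2 without ERT2 replicate 1 or Cre-ERT2 replicate 2 or 3 (adjusted p from 0.08 to 0.0861).

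Of 34 ligand genes, Ebi3 rose and Il33 fell, 5.88% of them against 8.1% of all genes. Il33, an alarm cytokine of the IL-1 family, read 845, 1022 and 842 on the ERT2 arrays and 359, 360 and 356 on the Cre-ERT2 arrays. The Cre-ERT2 readings nearly coincided and lay far below the others. Its difference was -1.33 (interval -1.53 to -1.12, limma adjusted p = 0.000304). Its receptor shares Il1rap, and its own binding chain Il1rl1 was not analysed here.

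The calls of the receptors differed in how well they held. Il1r2, Il7r, Il1rl2, Il12rb2 and Il27ra passed in every fit in which they were tested, with adjusted p of at most 0.00171, 0.00246, 0.00233, 0.00431 and 0.0452. Il1rl2 and Il12rb2 were dim enough to be absent from the fit of the brighter probe sets. Il17ra, Il18rap and Il1rap were called higher when only probe sets with 1 gene symbol were tested (limma adjusted p = 0.0361, 0.0144 and 0.0416), where 7 receptors rose instead of 4. That fit has fewer tests, and limma's pooling of variance across probe sets is also estimated anew in it. The part of either was not tested. Il18rap was also called without ERT2 replicate 2 (limma adjusted p = 0.0183) and with array weights (0.00667), and Il1rap with array weights (0.0205). Il17ra was also called with an intensity trend (limma adjusted p = 0.0398) and among the brighter probe sets (0.0387). Each of these genes was called too when a gene's probe sets were averaged.

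**Figure D5:**
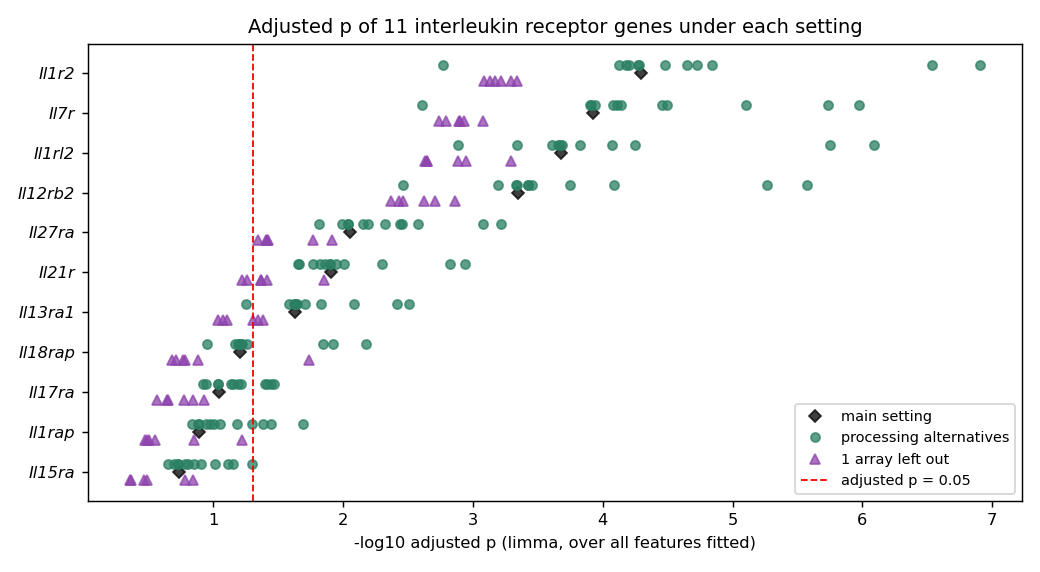
Adjusted p (limma, as -log10 on the x axis) of 11 interleukin receptor genes under the main setting (diamonds), other processing settings (circles) and with 1 array left out (triangles); the dashed line marks 0.05. Il1r2, Il7r, Il1rl2, Il12rb2 and Il27ra stay to the right of the line throughout, while Il21r and Il13ra1 cross it when some arrays are left out.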

How the data were processed

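Total RNA of 6 samples (3 ERT2, 3 Cre-ERT2) was biotin-labelled for Affymetrix arrays, according to the labels' protocols. The authors deposited 1 intensity per probe set and array, made with RMA (background correction, quantile normalization, probe set summary) per the submitters' processing notes; its version, the annotation and the genome build are not stated there. The deposited intensity values run from 6.27 to 26714, a linear scale, so log2(intensity + 1) was tested, which slightly understates changes of dim probe sets. Quantile normalization hides a shift common to all genes.

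Of 35556 probe sets 21789 name 1 gene, 1621 several and 12146 none; 21698 matched the gene table with 0 changes of symbol. Probe sets with several genes named none. All probe sets were fitted with limma 3.58.1 in R 4.3.3 (lmFit, eBayes, no covariates), two-sided, with Benjamini-Hochberg adjustment over all of them and a threshold of 0.05; intervals are limma's moderated 95% intervals. The calling was tested on simulated data.

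The members and lists were chosen with earlier results of these data known, so no list was tested and no p was adjusted over a list. Named with values were called members, gamma-chain members, the 5 members of highest mean, the 5 largest uncalled differences, and called genes of the lists; others were named after their values were seen. Marker lists covered pre-B, T, NK, myeloid, mast or eosinophil, erythroid and stromal cells. Alternatives were an intensity trend, robust fitting, brighter probe sets, probe sets with 1 gene symbol, median centring, quantile normalization, cyclic loess, array weights, a replicate block, a pseudocount of 16 or 0, averaging all probe sets of a gene, and each array left out. The files give no scan dates or slides, so batches were not examined.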

Additional observations from a re-analysis of the deposited data

How the results depend on the processing

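Directions and calls of the 17 interleukin receptor genes named by rule were recomputed in 18 settings, 300 values in all. In 276 the direction and the call were those reported, in 6 a call was lost, in 11 a call was gained and in 7 the sign turned. Lost calls were those of Il13ra1 and Il21r given above, and that of Il13ra1 with the replicate block. The sign turned in uncalled genes with differences near 0: Il4ra under a further quantile normalization (-0.016), cyclic loess (-0.021) and over single arrays left out (-0.028 to 0.067), Il2rb under array weights (-0.0088) and over single arrays left out (-0.0098 to 0.065), Il10rb over single arrays left out (-0.089 to 0.025) and Il2ra likewise (-0.033 to 0.0074).

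The number of risen receptors was 7 when only probe sets with 1 gene symbol were tested or a gene's probe sets were averaged. Both fits hold fewer features, and the cause of the higher count was not tested. Over single arrays left out the number of risen receptors lay between 3 and 5. The number of fallen receptors was 1 among the brighter probe sets, where 16 of 36 receptors were tested, and 3 in every fit with 1 array left out. Over all probe sets 1143 were higher and 1009 lower; array weights gave 2415 and 1612, and leaving out single arrays 606 to 1319 and 654 to 883. The higher count was 1319 without ERT2 replicate 2 and 606 to 753 when any of the remaining arrays was dropped, and the lower count of 654 came without Cre-ERT2 replicate 3. The cause of the count under array weights was not tested.

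Same-numbered samples did not deviate together in every pair (correlations of 0.205, 0.344 and -0.049), so the numbers were not taken as pairs. With the replicate number as a block, 3 receptors rose and 3 fell, 959 probe sets were higher and 877 lower, and Il13ra1, Map4k4 and Zc3h12a lost their calls (adjusted p = 0.0566, 0.0768 and 0.0524). Of the receptors 19 of 36 read below the array median on all arrays, where a change is hard to see.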

Other observations

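Genes that flank the called receptors were read as well, a choice made after values had been seen. Places were counted over protein-coding genes with a value only, passing over all others, so a counted neighbour may lie far away. Distances in bases were not read. Of the 32 genes that lay within 3 such places on either side and are not receptors of the set, 1 rose and 2 fell, 9.38% against 8.1% of all genes. Gng12, a G-protein gamma subunit near Il12rb2, had a difference of -0.57 (limma adjusted p = 0.00558). Eif2ak3, which encodes the stress kinase PERK, lies on the other side of Il12rb2 and rose by 0.63 (limma adjusted p = 0.00368). Map4k4, a kinase beside Il1r2, had a difference of -0.29 (limma adjusted p = 0.0361), and its call was lost without any array other than ERT2 replicate 3 (adjusted p from 0.0808 to 0.135). None of the 6 genes around Il7r passed, with differences from -0.13 to 0.20 (limma adjusted p of at least 0.113).

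Markers of mast cells, basophils and eosinophils, cells known for Il3ra, Il5ra and Il9r, summed to 944 to 1019 on the ERT2 arrays and 1008 to 1080 on the Cre-ERT2 arrays, and 0 of 10 passed by limma, with 0 at an unadjusted p under 0.05. Stromal markers summed to 2100 to 2393 and 2221 to 2406, and 0 of 10 passed, again with 0 at an unadjusted p under 0.05. Of 7 erythroid markers 4 had a probe set, which summed to 676 to 736 and 690 to 770, and 0 passed by limma, with 0 at an unadjusted p under 0.05.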
